A study of Mus musculus with 4 samples.

Results

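Rab proteins are small GTPases that mark the membranes of the secretory and endocytic pathways. In the GTP-bound state a Rab recruits effectors (tethers, motors and adaptors) that move a vesicle and dock it at its target, exchange factors load it with GTP, and GTPase-activating proteins switch it off. The epithelium of the epididymis, the duct in which sperm mature, depends on this traffic: principal cells secrete and endocytose luminal proteins, clear cells acidify the lumen by cycling vesicles that carry the vacuolar ATPase, and basal cells lie against the basement membrane under both.

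The Rab genes were taken as every gene of the matrix whose symbol is Rab followed by a number and, at most, a letter and a digit, which gave 57 of 16892 genes. The data are 4 single-cell RNA libraries, of 10-12 weeks old male FVB/NJ mice, from 3 stretches of the epididymis (caput, corpus, cauda) and from the vas deferens, with no mutant or treated group. Each library is 1 pool of 8 pieces of tissue from the same 4 mice, with 1 library per region, depleted of sperm and dissociated. A region is therefore 1 sample, regions cannot be told apart from libraries, and no test between regions was possible. Levels are UMIs (unique molecular identifiers, counted as 1 per molecule at its 3′ end, so gene length does not enter) that a gene had in a set of cells, divided by all UMIs of the set and multiplied by 1000000, written UPM. Intervals are 95% intervals that cover counting error only, not the spread between mice.

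The matrix held 8880 cells and 26639701 UMIs, with 4408989 to 10744928 UMIs a library and medians of 1433 to 2207 UMIs a cell. Cells were grouped by the authors' cluster names into 3956 principal, 348 clear, 1412 basal, 2222 stromal, 502 muscle, 245 endothelial and 195 immune cells, in 34 populations. These names were made from the same counts, so a level in a cell type is a description. Among the epithelial types, the listed markers of each were highest where the names put them. *Atp6v1g3*, a subunit of the vacuolar ATPase, was at 7062 UPM in clear cells against 38.7 in principal and 26.5 in basal cells. *Krt5* was at 284 UPM in basal cells against 5.54 in principal and 3.42 in clear cells. The clear cell marker *Slc4a9* was low even there, at 4.10 UPM against 1.67 in principal cells. The basal cell marker *Itga6* was at 245 UPM in basal cells and at 268 UPM in endothelial cells. The 38 clear cells of the vas deferens stood apart, with the 6 clear cell markers at a summed 4786 UPM against 9599 to 10258 UPM in the clear cells of the other libraries, and the 8 principal cell markers at 9866 UPM against 884 to 1713 UPM. Muscle cells came mostly from the vas deferens, with 437 of 502 cells, and the caput library had 0. Across libraries, 43 barcodes were shared.

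Of the 57 Rab genes, 52 had at least 20 UMIs in some cell type. The other 5 were close to absent: *Rab26* had 4 UMIs in all cells, *Rab33a* had 4, *Rab39* had 2, *Rab37* had 10 and *Rab36* had 22. *Rab37*, a Rab of secretory granules, had 6 of its 10 UMIs in immune cells, and all 6 were in the 44 T cells. *Rab36*, which acts on the position of late endosomes, had 8 UMIs in clear cells, 6 in muscle and 5 in stromal cells.

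The summed level of the family was between 2468 UPM (2437 to 2500) in principal cells and 3649 UPM (3552 to 3748) in clear cells among the epithelial types, with basal cells at 3008 UPM (2965 to 3052). Clear cells were steady from library to library at 3422, 3652, 3787 and 3511 UPM from caput to vas deferens. Principal cells were at 1839, 2251, 1827 and 3004 UPM in the same order, so the vas deferens stood above the other regions. UPM is a share, and these gaps are partly shared by all genes. With levels scaled by the median gene, the family sum of clear cells was 0.778 times that of basal cells, in place of 1.21, and 1.01 times that of principal cells, in place of 1.48. The 10 most abundant genes took 18.4% to 29.3% of the UMIs of principal cells, by library, against 6.32% to 8.95% in clear cells. For 47 Rab genes with enough UMIs, the median log2 ratio of clear to principal cells was 0.46, beside 0.39 over 10203 genes. For 40 Rab genes, the median log2 ratio of clear to basal cells was 0.38, beside 0.53 over 9243 genes. The Rab genes thus did not stand above the median of all genes in clear cells against basal cells. These medians are descriptions with no test.

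**Figure D1:**
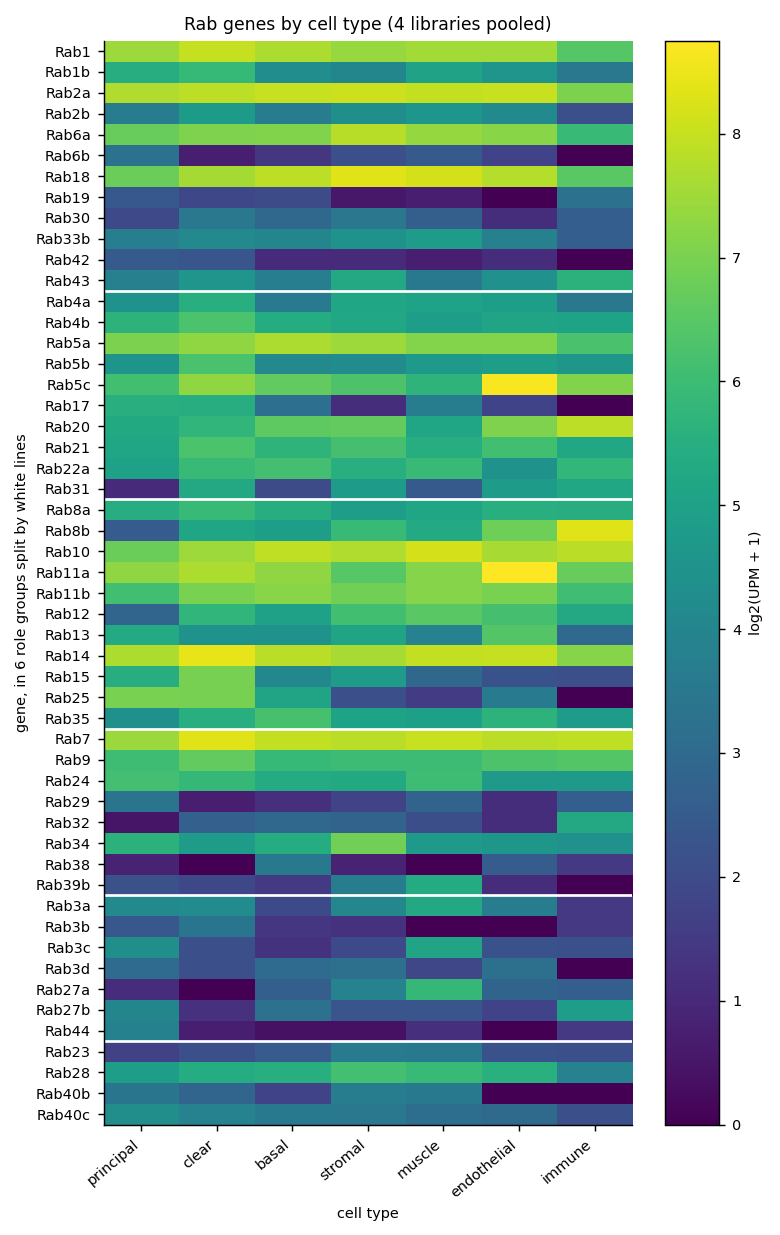
Heat map of the 52 Rab genes with at least 20 UMIs in a cell type (rows, in role groups split by white lines) in 7 cell types (columns), as log2 of UPM plus 1, with 4 libraries pooled. *Rab1*, *Rab2a*, *Rab7* and *Rab14* are bright in every column, while *Rab31*, *Rab38*, *Rab44* and *Rab25* are bright in some columns and dark in others.

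The most abundant Rab genes were those of housekeeping traffic, and they were found in every cell type. In principal cells the highest were *Rab2a*, which acts between the Golgi and the endoplasmic reticulum, at 210 UPM, *Rab14*, of the Golgi and endosomes, at 202 UPM, and *Rab1*, of transport from the endoplasmic reticulum to the Golgi, at 177 UPM. In clear cells they were *Rab14* at 343 UPM, *Rab7*, of late endosomes and lysosomes, at 319 UPM, and *Rab1* at 254 UPM. In basal cells they were *Rab2a* at 257 UPM, *Rab7* at 244 UPM and *Rab10*, of transport to the plasma membrane, at 238 UPM. Between clear and principal cells, *Rab14* differed 1.70-fold (1.54 to 1.88) and *Rab7* 1.87-fold (1.69 to 2.08). The clear-to-basal ratios of *Rab1*, *Rab7* and *Rab14*, at 1.24, 1.31 and 1.49, fell below 1 when levels were scaled by the median gene in place of the total, so their order between these types depends on the scaling. By role, the 10 early endosomal Rab genes summed to 776 UPM (731 to 822) in clear cells, 595 UPM (576 to 615) in basal cells and 439 UPM (426 to 453) in principal cells. The 11 genes of recycling and transport to the plasma membrane summed to 1303 UPM (1245 to 1363) in clear, 1015 UPM (990 to 1041) in basal and 822 UPM (804 to 840) in principal cells. The 9 genes of regulated secretion had another order, with 78.3 UPM (72.8 to 84.1) in principal, 36.9 UPM (27.8 to 48.2) in clear and 27.7 UPM (23.7 to 32.1) in basal cells. With levels scaled by the median gene, the clear-to-basal ratio went from 1.30 to 0.836 for the early endosomal genes, from 1.28 to 0.823 for the recycling genes and from 1.34 to 0.857 for those of regulated secretion, so these orders depend on the scaling too. Clear cells stayed above principal cells for the first 2 groups, at 1.21 and 1.08, and principal cells stayed highest for regulated secretion.

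A Rab gene was called restricted among the epithelial types if 1 of clear, basal and principal cells had at least 20 UMIs and at least 4 times the level of both others, with levels under 3 UMIs raised to 3 UMIs. Of 52 Rab genes measured in these types, 6 (11.5%) were called, against 10.8% of the 11748 genes that had 20 UMIs. The count for the family was therefore near that for all genes. *Rab31* was restricted to clear cells (1.92% of the 52, against 3.54% of all genes) and *Rab38* to basal cells (1.92% against 3.43%). *Rab3c*, *Rab6b*, *Rab29* and *Rab44* were restricted to principal cells (7.69% against 3.78%). At a milder threshold of 2-fold, 11 Rab genes (21.2%) were called, against 28.6% of all genes. Of these, 5 were highest in clear cells (9.62% of the 52, against 11.3% of all genes). In basal cells 2 were highest (3.85% against 8.72%) and in principal cells 4 (7.69% against 8.54%). The genes highest in clear cells were *Rab31*, *Rab5b*, *Rab15*, *Rab2b* and *Rab4a*, of which *Rab2b* and *Rab4a* fall outside the rule for named genes and are given because the count is small.

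*Rab31*, a Rab5-like protein of early endosomes and of vesicles leaving the trans-Golgi, was found in clear cells and little in the other epithelial types. From caput to vas deferens, clear cells had 26.3, 45.0, 36.3 and 40.1 UPM. Principal cells had 1.16, 2.82, 0.575 and 0.641 UPM in the same order, and basal cells had 2.83, 2.84, 4.18 and 2.96 UPM. In every library the clear cells stood above both other types, on 7, 21, 21 and 6 UMIs. Pooled, the level in clear cells (55 UMIs, 37.6 UPM) was 36.0 times (18.2 to 79.2) that in principal cells (10 UMIs) and 12.2 times (7.15 to 21.9) that in basal cells (19 UMIs). The 2 larger clear populations were alike, at 39.5 UPM (28.6 to 53.2) in the main clear cells and 33.4 UPM (16.7 to 59.7) in the Amylin-positive ones, which were found in the caput and corpus libraries. Outside the epithelium *Rab31* was not low. It had 36.1 UPM in immune cells, 27.5 UPM in endothelial cells and 26.7 UPM in stromal cells, where it reached 79.6 UPM (57.9 to 107) in the 153 cells of the fibroblast population C2. Stromal cell markers were also present in clear cells, at a summed 793, 302, 79.4 and 207 UPM from caput to vas deferens. In pooled clear cells *Dcn* was at 278 UPM and the 4 other stromal markers at 1.37 to 6.16 UPM. Their part in the level of *Rab31* was not tested.

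*Rab5b* and *Rab4a* also act at early endosomes, in fusion and in fast recycling. *Rab5b* had 67.7, 75.0, 79.4 and 60.1 UPM in clear cells from caput to vas deferens, 27.8, 19.7, 13.2 and 23.7 UPM in principal cells, and 16.3, 14.6, 20.9 and 15.5 UPM in basal cells. Clear cells were highest in each of the 4 libraries, and the pooled ratio was 3.37 (2.64 to 4.26) over principal and 4.57 (3.45 to 6.06) over basal cells. The paralogs of *Rab5b* had other orders. *Rab5a* was highest in basal cells, at 202 UPM, with 157 UPM in clear and 128 UPM in principal cells, and *Rab5c* was highest of all in endothelial cells, at 401 UPM, with 156 UPM in clear, 98.3 UPM in basal and 68.5 UPM in principal cells. *Rab4a* was at 45.2 UPM in clear cells, 2.096 times (1.56 to 2.78) principal and 4.17 times (2.92 to 5.94) basal cells. *Rab2b* was at 26.0 UPM in clear cells and at 12.0 UPM in both principal and basal cells, and clear cells were the highest in 3 of the 4 libraries. With levels scaled by the median gene, *Rab2b*, *Rab4a* and *Rab15* no longer passed 2-fold.

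The sequences before the transcription start are shown for *Rab31* and *Rab5b*, early endosomal members that passed 2-fold in clear cells, so that their base composition can be compared. They are RefSeq starts on GRCm38.p6, read 5′ to 3′ on the gene's strand from 250 bases before the start and ended before the first base of an annotated exon, and capitals mark CG dinucleotides, a sequence that reads alike on both strands. The *Rab31* stretch is chr17:65772753-65773002 on the minus strand and the *Rab5b* stretch is chr10:128696269-128696518 on the minus strand.
Rab31: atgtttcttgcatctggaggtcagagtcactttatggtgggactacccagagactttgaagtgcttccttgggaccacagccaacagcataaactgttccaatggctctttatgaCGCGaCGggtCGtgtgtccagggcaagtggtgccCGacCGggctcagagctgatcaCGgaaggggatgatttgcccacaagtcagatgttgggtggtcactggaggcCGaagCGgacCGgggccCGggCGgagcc
Rab5b: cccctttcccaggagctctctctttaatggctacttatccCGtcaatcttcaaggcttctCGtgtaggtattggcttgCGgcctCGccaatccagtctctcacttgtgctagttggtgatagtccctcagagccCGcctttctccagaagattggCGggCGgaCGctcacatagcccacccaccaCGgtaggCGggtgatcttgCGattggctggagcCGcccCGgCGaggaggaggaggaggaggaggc
The *Rab31* stretch held 12 CG and the *Rab5b* stretch 14. Over the 47 Rab genes with a matched promoter, the median was 16 CG in 250 bases, with a range of 3 to 40, and over 12547 other genes of the matrix with one the median was 14. Of those other promoters, 57.3% held at least as many CG as *Rab31* and 50.3% at least as many as *Rab5b*.

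*Rab15*, which acts in endocytic recycling, was high in clear cells of every library and also in principal cells of the distal duct. Clear cells had 97.8, 114, 138 and 140 UPM from caput to vas deferens and basal cells 14.9, 17.4, 15.7 and 14.8 UPM. Principal cells had 6.96, 5.64, 29.9 and 71.8 UPM. Clear and basal cells were thus level along the duct within their intervals, while principal cells of the vas deferens were 10.3 times (5.82 to 20.1) those of the caput. The pooled ratio of clear to principal cells, 2.89 (2.41 to 3.45), averages over these regions. The 6 clear cell markers summed to 117, 275, 96.0 and 114 UPM in principal cells from caput to vas deferens. In the vas deferens *Atp6v1a* had 110 UPM of this, *Slc4a9* 2.99, *Atp6v1g3* 1.07 and *Atp6v0d2* 0.214 UPM, and *Foxi1* and *Atp6v1b1* were at 0. Their part in the level of *Rab15* was not tested. Among clear cells, *Rab15* was at 139 UPM (117 to 163) in the main population and at 72.8 UPM (46.7 to 108) in the Amylin-positive cells. After drawing 1000 UMIs from each cell with that many, 12.6% of clear cells (8.67% to 17.5%) had a *Rab15* UMI, against 3.75% of principal cells (2.94% to 4.71%), 1.56% of basal cells (0.926% to 2.45%) and 0.633% of immune cells (0.0160% to 3.48%). Shallower cells were left out of these shares, 2062 principal, 110 clear, 257 basal and 37 immune cells. Without thinning, the shares were 31.0%, 7.61%, 6.37% and 1.03%, at medians of 4430, 934.5, 4333 and 2887 UMIs a cell. The secretory stromal population, of 226 cells and mostly from the vas deferens, also had *Rab15*, at 105 UPM (82.1 to 133). *Rab15* overlaps *Fntb* on the other strand in GENCODE or ends within 1000 bases of it, and how far strand was used in counting is not given in the sources used here. The same holds for *Rab25* with *Mex3a*, *Rab2b* with *Tox4*, *Rab5c* with *Hspb9*, *Rab5a* with *Pp2d1*, *Rab3a* with *Mpv17l2* and *Rab1* with *Cep68*.

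**Figure D2:**
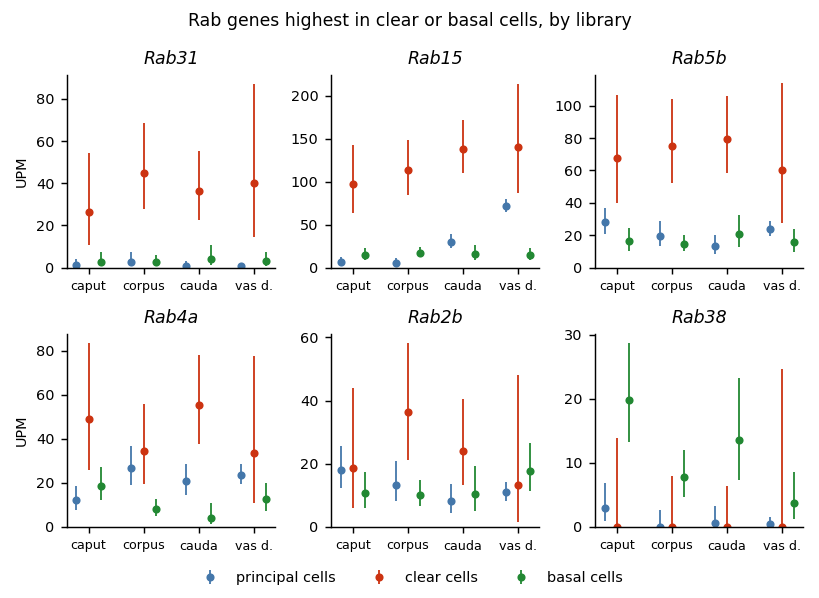
Levels in UPM (vertical axes, from 0) of *Rab31*, *Rab15*, *Rab5b*, *Rab4a*, *Rab2b* and *Rab38* in principal, clear and basal cells of the 4 libraries (horizontal axes), with 95% Poisson intervals as bars and 1 library a point. Clear cells are highest in all libraries for *Rab31*, *Rab15*, *Rab5b* and *Rab4a*, and basal cells are highest in all libraries for *Rab38*.

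*Rab38*, known from the biogenesis of melanosomes and other lysosome-related organelles, was found in basal cells. From caput to vas deferens they had 19.8, 7.71, 13.6 and 3.70 UPM, on 28, 19, 13 and 5 UMIs. Clear cells had 0 UMIs in every library and principal cells had 5, 0, 1 and 2 UMIs. The pooled level in basal cells, 10.5 UPM, was 12.6 times (6.01 to 30.3) that in principal cells and at least 5.12-fold higher than in clear cells, taking 3 UMIs over all clear cells as the floor, with a lower 95% limit of 4.05. Its closest paralog *Rab32* was not restricted within the epithelium, at 6.79 UPM in basal, 5.47 UPM in clear and 0.418 UPM in principal cells, and it was highest in immune cells, at 37.8 UPM. *Rab27a*, which docks secretory granules and exosome-bearing endosomes, was the other gene past 2-fold in basal cells, at 5.34 UPM on 33 UMIs, with 11 UMIs in principal cells and 0 in clear cells.

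The 4 genes restricted to principal cells followed the regions of the duct. *Rab3c*, a Rab3 of regulated exocytosis, had 0, 68, 117 and 3 UMIs in principal cells along the duct, or 0, 47.9, 67.3 and 0.641 UPM. *Rab6b*, a Golgi Rab best known from neurons, had 5.22, 26.1, 19.5 and 0.427 UPM in the same order, on 9, 37, 34 and 2 UMIs. Both were thus high in corpus and cauda and near 0 in the vas deferens, and they differed in the caput. The corpus-to-vas deferens ratio was 74.8 (24.5 to 372) for *Rab3c* and 61.1 (15.7 to 523) for *Rab6b*. *Rab44*, a large Rab of granule-bearing cells, had another course, with 1.16, 9.16, 13.8 and 18.8 UPM from caput to vas deferens, on 2, 13, 24 and 88 UMIs. *Rab29*, of lysosomes and the trans-Golgi, had 4.06, 0.705, 1.72 and 16.9 UPM, on 7, 1, 3 and 79 UMIs, so that it came mainly from the vas deferens. Over the pooled principal cells, *Rab3c* was at 19.7 UPM, 5.75 times (2.42 to 17.9) clear and 13.5 times (6.96 to 30.0) basal cells. *Rab44* was at 13.3 UPM against 1 UMI in clear cells and 2 in basal cells, a ratio of 19.4 (3.42 to 773) and 41.1 (11.1 to 343). *Rab6b* was at 8.57 UPM and *Rab29* at 9.41 UPM, each with 1 UMI in clear cells, for ratios of 12.5 (2.19 to 501) and 13.8 (2.41 to 549). Over basal cells the ratios were 5.30 (2.74 to 11.5) for *Rab6b* and 7.27 (3.54 to 17.4) for *Rab29*. With levels under 3 UMIs raised to 3 UMIs, the principal-to-clear ratio of *Rab29* was 4.58, and without the vas deferens library it was 0.985. The calls also depended on single libraries: *Rab38* and *Rab6b* were not called without the caput, *Rab29* and *Rab6b* without the corpus, and *Rab29* and *Rab44* without the vas deferens. When the cauda library was left out, *Rab31* was still called and the 5 others were not. The level that 3 UMIs stand for in clear cells was then 3.40 UPM in place of 2.05 UPM.

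Between principal cells of the 4 regions, a Rab gene was called if 1 library had at least 20 UMIs and at least 2 times the level of each other. Of 45 Rab genes with enough UMIs, 9 (20%) were called, against 19.1% of 9854 genes, so the family as a whole was again near the background. The vas deferens held 7 of the 9, which is 15.6% of the 45, against 7.59% of all genes measured. Principal cells of the vas deferens had 4682368 UMIs, against 1418794 to 1739693 in the other libraries. The minimum of 20 UMIs was thus met at a lower level there, for all genes as for Rab genes. *Rab27b*, *Rab29* and *Rab3d* reached it in the vas deferens only. The caput held 1 (2.22% against 5.56%), the corpus 1 (2.22% against 4.49%) and the cauda 0 (0% against 1.42%). In clear cells 0 of 29 Rab genes passed the same rule, against 4.67% of 5074 genes, and in basal cells 1 of 37 did, *Rab27b* in the caput, against 9.47% of 7800 genes. With 38 to 132 clear cells a library, fewer Rab genes had enough UMIs to be read there.

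The 7 genes of the vas deferens included Rab genes of apical recycling and of transport to the surface. *Rab11a*, of recycling endosomes, had 85.3, 60.6, 72.4 and 244 UPM in principal cells from caput to vas deferens, and *Rab25*, its epithelial paralog, had 76.6, 86.0, 79.9 and 177 UPM. For both, the 3 epididymal regions lay close together and the vas deferens stood alone. The vas deferens was 2.86 times (2.41 to 3.42) the caput for *Rab11a* and 2.05 times (1.70 to 2.50) the corpus for *Rab25*. *Rab11b*, the third of these paralogs, was at 60.3, 68.4, 52.3 and 77.3 UPM and was not called. *Rab13*, which acts at tight junctions, had 9.28, 14.1, 17.8 and 67.3 UPM, with the vas deferens 3.78 times (2.61 to 5.65) the cauda. *Rab8a* and *Rab10*, close to *Rab13* in sequence, were at 44.1, 28.2, 27.0 and 53.2 UPM and at 67.9, 98.0, 81.6 and 141 UPM and were not called. The other vas deferens genes were *Rab15* and *Rab29*, given above, *Rab27b*, with 9.86, 10.6, 0 and 24.3 UPM, and *Rab3d*, with 2.32, 3.52, 4.02 and 11.7 UPM, both of regulated secretion. Over all genes, the median log2 ratio of the vas deferens to the caput, corpus and cauda in principal cells was 0.23, -0.02 and 0.37, and over the Rab genes it was 0.65, 0.37 and 0.71. With levels scaled by the median gene, *Rab15* and *Rab25* fell below 2-fold and the other 7 genes were still called. Without the vas deferens library 3 of the 9 genes were called, *Rab15* (then in the cauda), *Rab3b* and *Rab42*.

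The stretches before the starts of *Rab11a* and *Rab25*, paralogs that were both highest in vas deferens principal cells, are printed as for *Rab31*. The *Rab11a* stretch is chr9:64737759-64738006 and the *Rab25* stretch is chr3:88548301-88548529, both on the minus strand.
Rab11a: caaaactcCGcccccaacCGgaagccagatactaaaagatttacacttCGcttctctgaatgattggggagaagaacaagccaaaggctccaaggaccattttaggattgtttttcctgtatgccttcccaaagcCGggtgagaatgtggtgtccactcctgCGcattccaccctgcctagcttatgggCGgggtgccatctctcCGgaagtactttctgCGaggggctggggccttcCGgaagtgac
Rab25: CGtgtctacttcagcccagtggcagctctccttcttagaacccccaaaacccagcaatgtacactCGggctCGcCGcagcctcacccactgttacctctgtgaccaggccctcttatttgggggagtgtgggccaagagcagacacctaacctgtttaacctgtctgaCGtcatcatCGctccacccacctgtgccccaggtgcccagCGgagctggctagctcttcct
The first held 9 CG in 248 bases and the second 7 in 229, and in the full 250 bases 63.7% and 69.8% of other promoters held at least as many as each.

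Away from the vas deferens, *Rab3b*, of regulated exocytosis, was called in the corpus, with 0.580, 24.7, 2.30 and 0 UPM from caput to vas deferens and a corpus-to-cauda ratio of 10.7 (3.84 to 41.6). Clear cells had *Rab3b* too, with 8, 6, 0 and 0 UMIs in the same order. Pooled over libraries, their level of 9.58 UPM was 2.29 times (1.15 to 4.30) the 4.18 UPM of principal cells. *Rab42*, a little-studied member, was called in the caput, with 15.7, 2.11, 1.15 and 2.56 UPM and 6.11 times (2.99 to 13.2) the vas deferens. *Rab3a* did not follow the other Rab3 genes, at 21.5, 23.3, 8.05 and 17.1 UPM in principal cells and 17.8 UPM in pooled clear cells against 2.91 UPM in basal cells. In principal cells, summed markers of other types were also unequal: clear cell markers ranged from 96.0 to 275 UPM and were highest in the corpus, and muscle markers ranged from 43.7 to 671 UPM, with *Actg2* at 652 UPM in the caput and at 99.5 UPM in the vas deferens. The 3 other muscle markers were highest in the vas deferens, with *Myh11* at 24.8 UPM, *Des* at 27.1 UPM and *Cnn1* at 44.2 UPM. The part of these markers in the regional levels was not tested.

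**Figure D3:**
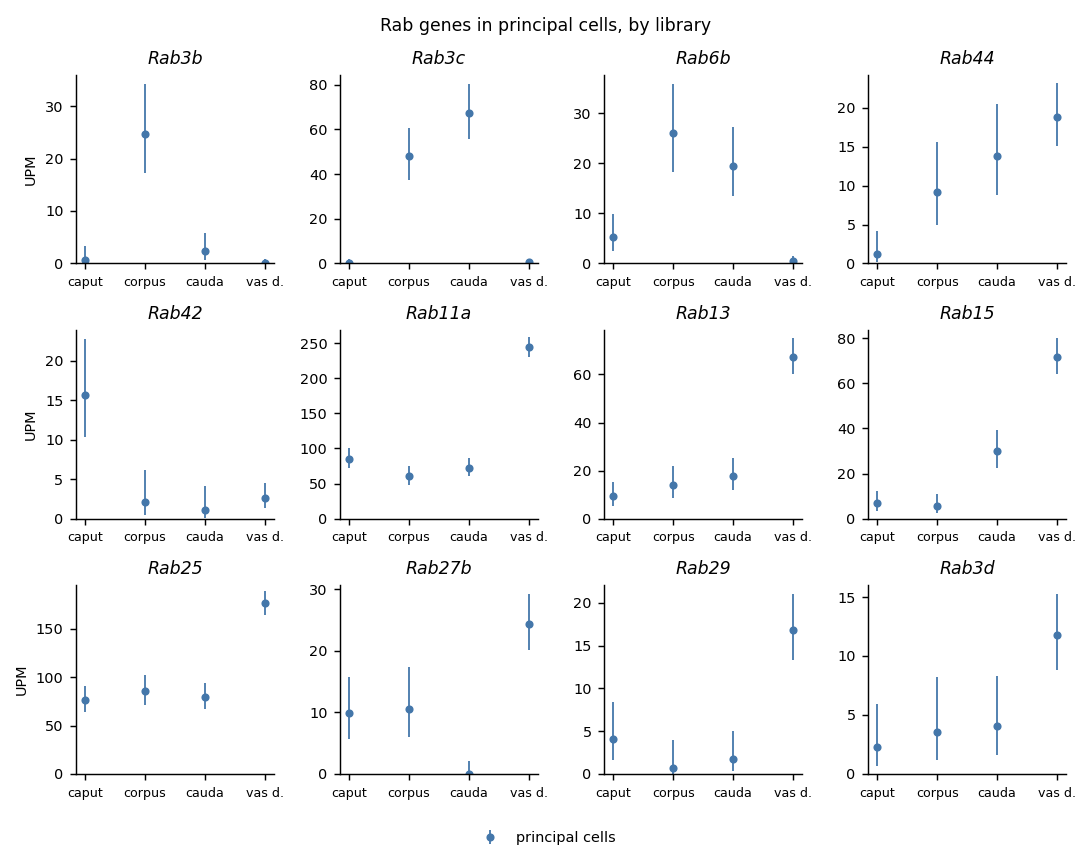
Levels in UPM (vertical axes, from 0) of 12 Rab genes in principal cells of the 4 libraries (horizontal axes), with 95% Poisson intervals as bars and 1 library a point. *Rab3c* and *Rab6b* peak in corpus and cauda, *Rab3b* in the corpus and *Rab42* in the caput, and the 7 genes from *Rab11a* to *Rab3d* are highest in the vas deferens.

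The 15 principal cell populations placed these patterns more finely. *Rab3c* was at 0 UMIs in populations 1 to 4, at 8.26 UPM in population 5, at 63.4 and 65.2 UPM in populations 6 and 7, which came from the corpus, and was highest in population 8 of the cauda, at 85.4 UPM (66.8 to 108). It was lower in the other distal populations, at 35.6, 42.5 and 33.2 UPM in populations 9 to 11, and at most 1.22 UPM in populations 12 to 15 of the vas deferens. *Rab6b* was already at 28.9 UPM (15.8 to 48.5) in population 5 and was at 29.5 UPM in population 7 and 24.9 UPM in population 8. *Rab3b* was nearly limited to the corpus populations 6 and 7, at 25.8 UPM (12.9 to 46.2) and 40.4 UPM (26.4 to 59.2). *Rab42* was at 13.7 and 21.3 UPM in caput populations 1 and 2, and its interval in population 3 (6.01 UPM, 0.152 to 33.5) held both values. In populations 12 to 15, *Rab11a* was at 258, 249.01, 232 and 248 UPM and *Rab25* at 194, 172, 196 and 162 UPM, so the 4 vas deferens populations were much alike in both. *Rab15* was not alike among them, at 98.3 UPM (84.0 to 114) in population 12, 70.8 and 54.8 UPM in populations 13 and 14, and 37.7 UPM (25.6 to 53.5) in population 15.

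**Figure D4:**
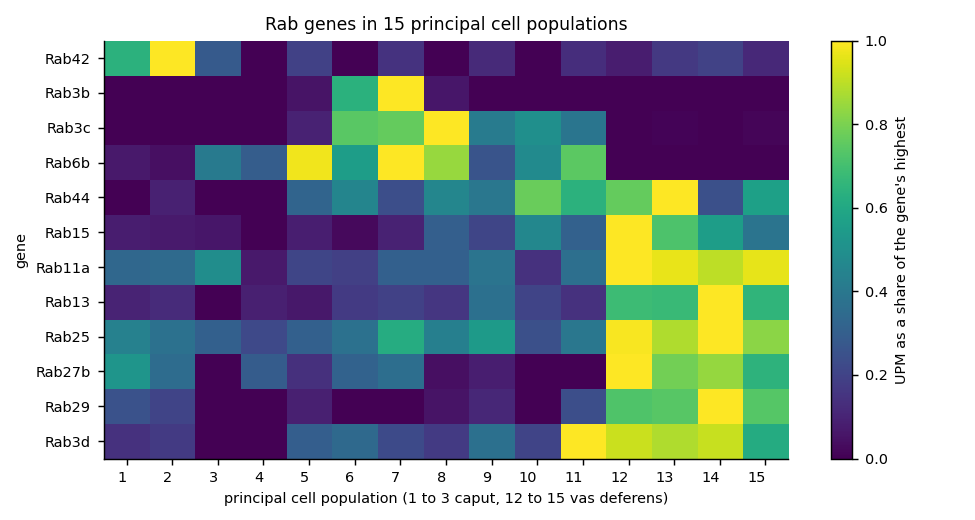
Heat map of 12 Rab genes (rows) in 15 principal cell populations (columns, in the order of the duct), with each value the UPM as a share of the gene's highest population. *Rab3c* is brightest in population 8, at 85.4 UPM, and *Rab11a* and *Rab25* are bright in populations 12 to 15.

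Some Rab genes were low in principal cells and not in the other types. *Rab12*, of recycling endosomes and receptor degradation, was at 6.27 UPM in principal cells against 53.4 UPM in clear and 31.5 UPM in basal cells, and at 37.8 to 89.8 UPM in the 4 other types. The clear-to-principal ratio was 8.51 (5.998 to 12.1). In each library it was higher in clear and in basal cells, at 5.80, 6.34, 1.72 and 8.12 UPM in principal and 56.4, 51.4, 63.9 and 13.4 UPM in clear cells from caput to vas deferens. *Rab8b* had 4.81 UPM in principal cells, 34.2 UPM in clear and 28.3 UPM in basal cells, while its paralog *Rab8a* was level, at 43.1, 58.2 and 42.9 UPM. *Rab12*, and the contrast between the Rab8 genes, were chosen after their values were seen. The other way round, *Rab25* and *Rab17*, both known from polarized epithelia, were higher in principal and clear cells than in any other type. *Rab25* was at 128 UPM in principal, 122 UPM in clear and 33.3 UPM in basal cells, at 0 UMIs in immune cells and at most 10.8 UPM in the other types. Its principal-to-clear ratio was 1.04 (0.890 to 1.23). *Rab17* was at 43.7 UPM in principal, 42.4 UPM in clear and 8.25 UPM in basal cells, and muscle cells had 11.8 UPM on 18 UMIs. It was at most 2.39 UPM in stromal, endothelial and immune cells, and was chosen after its values were seen.

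Over all 7 cell types, 2 of 52 Rab genes (3.85%) were restricted at 4-fold, against 10.4% of 12868 genes. In immune cells the floor of 3 UMIs stands for 5.15 UPM. A gene under 4 times that level in another type could not be called in that type, and this held for all genes. *Rab38* in basal cells and *Rab6b*, *Rab29* and *Rab44* in principal cells, at 8.57 to 13.3 UPM, were under it. *Rab27a* was highest in muscle, at 56.4 UPM (86 UMIs), 4.11 times (3.02 to 5.59) stromal cells, which had 13.7 UPM. The muscle 1 population had 116 UPM (80.5 to 161) and the muscle 2 population 41.7 UPM (31.1 to 54.9). Its paralog *Rab27b* was highest in immune cells, at 29.2 UPM, of which the T cells had 118 UPM (62.7 to 201) on 13 UMIs. *Rab32* was restricted to immune cells, at 37.8 UPM on 22 UMIs and 5.56 times (3.16 to 9.54) basal cells. Both calls were near the threshold: at 6-fold neither gene was called. Without the cauda or the vas deferens library neither was called, and without the corpus *Rab27a* was. *Rab3c* was at 33.4 UPM in muscle, 1.70 times (1.22 to 2.33) its level in principal cells. *Rab11a* and *Rab5c* were highest in endothelial cells, at 430 UPM and 401 UPM. *Rab11a* had 282, 249.5, 335 and 556 UPM there from caput to vas deferens, in 50, 39, 12 and 144 endothelial cells. The endothelium of the vas deferens, like its principal cells, had the highest of the 4 levels. Basal cells did not share this, with *Rab11a* at 116, 153, 196 and 178 UPM. In endothelial cells *Rab5c* had 275, 542, 509 and 372 UPM, and the vas deferens was not highest.

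Most regulators and effectors of Rab proteins were likewise broad. From a list of genes for membrane delivery and prenylation, exchange factors, GTPase-activating proteins and effectors, 145 were in the matrix, 131 had at least 20 UMIs in clear, basal or principal cells and 10 (7.63%) were restricted at 4-fold, beside the 10.8% of all genes. Of these, 6 (4.58% of the 131) were restricted to clear cells, 2 (1.53%) to basal cells and 2 (1.53%) to principal cells. Over all genes these shares were 3.54%, 3.43% and 3.78%. By role the 10 genes were 4 of 38 measured exchange factors, 3 of 36 GTPase-activating proteins, 3 of 49 effectors and 0 of 8 genes for membrane delivery and prenylation. *Rin1* and *Tbc1d24* were not called once any 1 library was left out, *Dennd3* was called only with the caput, corpus and cauda libraries all kept, *Tbc1d22b* was not called without the cauda, and *Sytl4* and *Myo5b* were not called without the caput.

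*Rabep2*, which encodes Rabaptin-2, an effector of Rab5 and Rab4 at early endosomes, was the highest of the 6 in clear cells. Clear cells had 169, 191, 133 and 140 UPM from caput to vas deferens, principal cells 15.1, 19.0, 10.9 and 11.7 UPM, and basal cells 14.2, 3.65, 7.32 and 4.44 UPM. Clear cells stood above both other types in every library, and the pooled clear-to-principal ratio was 12.0 (9.59 to 15.0). *Rabep2* overlaps *Atp2a1* on the other strand or ends within 1000 bases of it. *Tbc1d16*, a GTPase-activating protein reported to act on Rab4, was at 52.7 UPM in clear cells, 7.997 times (5.66 to 11.3) principal cells. In the corpus its level in principal cells was 28.2 UPM, against 1.16 to 4.02 UPM in the other regions. Clear cell markers in principal cells were also highest in the corpus, and their part in the level of *Tbc1d16* was not tested. *Dennd1a*, an exchange factor for Rab35, was at 27.4 UPM in clear cells and 6.04 times (3.64 to 10.2) basal cells. *Dennd3*, an exchange factor for Rab12, was at 15.7 UPM in clear cells, 10.7 times (5.30 to 22.6) principal cells, though endothelial cells had 44.3 UPM. *Tbc1d22b* and *Tbc1d24* were at 21.9 and 14.4 UPM in clear cells, 4.11 times (2.55 to 6.51) and 4.74 times (2.57 to 8.60) principal cells. *Tbc1d22b* has *Tmem217* beside or over it on the other strand and *Tbc1d24* has *Ntn3* on the same strand, so their reads may be shared. In basal cells the restricted genes were the exchange factors *Dennd2c*, at 23.6 UPM against 1.37 UPM in clear cells, and *Rin1*, which acts on Rab5, at 8.57 UPM against 2.05 UPM.

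The 2 regulators restricted to principal cells had another course along the duct than several of the Rab genes they bind. *Sytl4*, which encodes granuphilin, an effector of Rab27 and Rab3 in granule docking, was at 185, 35.9, 6.32 and 0 UPM along the duct. With a floor of 3 UMIs, the caput was at least 288-fold higher than the vas deferens, and the lower 95% limit of the ratio was 233. *Rab27b* was highest, and *Rab3d* too, in the vas deferens, and *Rab3c* was at 0 in the caput. *Rab3a*, at 21.5, 23.3, 8.05 and 17.1 UPM from caput to vas deferens, was higher in the caput than in the cauda, as *Sytl4* was. *Myo5b*, the motor that binds Rab11 on recycling endosomes, was at 98.6, 51.5, 14.9 and 25.0 UPM from caput to vas deferens, while *Rab11a* and *Rab25* were highest in the vas deferens. *Rab11b* varied less, at 60.3, 68.4, 52.3 and 77.3 UPM, and was not called. The caput was 3.95 times (3.10 to 5.04) the vas deferens for *Myo5b*.

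**Figure D5:**
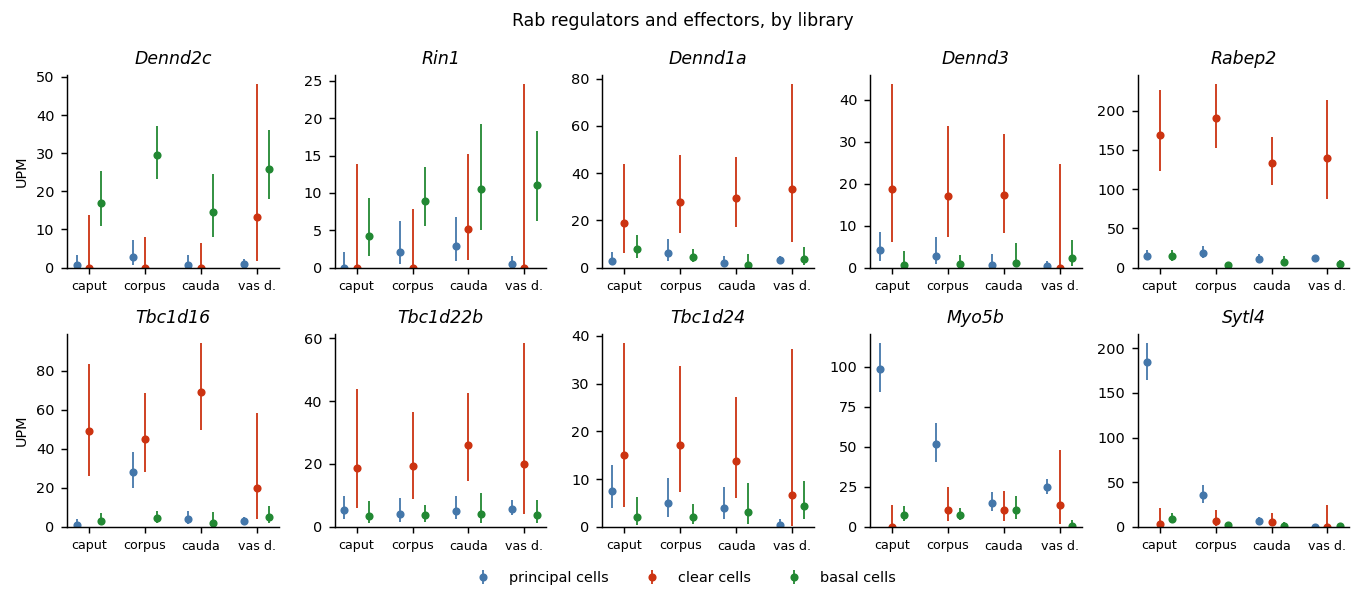
Levels in UPM (vertical axes, from 0) of the 10 restricted regulators and effectors in principal, clear and basal cells of the 4 libraries (horizontal axes), with 95% Poisson intervals as bars and 1 library a point. *Rabep2* in clear cells is at 133 to 191 UPM in all libraries, and *Sytl4* in principal cells is at 185 UPM in the caput and at 0 UMIs in the vas deferens.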

How the data were processed

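The deposited matrix holds counts, as whole UMIs, for 16892 genes by 8880 cells from 4 libraries, made by the authors from 10x 3′ reads aligned with HISAT2 2.0.4 to mm10, counted on RefSeq genes with ESAT, with multimapping reads ignored, UMIs with 1 mismatch merged, and reduced by an estimate of ambient RNA with a modified SoupX. Cell barcodes outside set limits of UMIs had been removed by the authors. How far these steps, the ambient estimate above all, changed low counts cannot be seen in the files. A deposited table of cells gave each cell's library and its cluster name, and these names were used without clustering again; the clusters were made on the same counts.

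UMIs were summed over groups and divided by the group's total. Levels have exact 95% Poisson intervals, ratios exact conditional binomial intervals and shares Clopper-Pearson intervals. All cover counting error only, and PCR duplicates are removed by the UMIs. The floor of 3 UMIs is 0.314 UPM in principal, 2.05 in clear and 0.485 in basal cells. The upper 95% Poisson limit of a count of 0 lies somewhat above this floor. With 1 library per region, no p-value was computed and no gene was tested. Restricted genes had at least 20 UMIs and 4 times the level of every other group, regional genes 2 times. The rules were tested on simulated counts of 16892 genes in each of 3 comparisons. All 100 genes above and 0 of 100 genes below the threshold were called, and of the unchanged genes 0, 0 and 8 were, the last between regions at 2-fold. The changed genes were picked to have many UMIs expected in every group, with true folds well off the threshold. These rates therefore do not cover calls that rest on few UMIs in a group, as for *Rab29*, *Rab6b*, *Rab44* and *Rab38* in clear cells, or calls near the threshold.

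The Rab genes, the lists and these rules were chosen with earlier results of these data known. Named genes are those past the restricted or regional rules, the 3 highest in each epithelial type, the members of listed paralog groups, and the restricted regulators and effectors. Median log2 ratios used genes with at least 40 UMIs in the pair of groups. Doublets were called from simulated ones in each library: 178 cells (2.00%) were called, a number set by an assumed 0.8% per 1000 cells, with 30.1% to 64.1% of simulated doublets past the threshold. They were kept, and leaving them out was an alternative. Other alternatives changed the fold, the minimum UMIs, the cells, the weighting and the libraries. Positions and neighbors are from GENCODE (GRCm38, the assembly of mm10) and promoters from RefSeq (GRCm38.p6), read for 47 of 57 Rab genes. *Rab18* and *Rab27b*, on chromosome 18, were left out of the promoter counts, while other genes of that chromosome were not. The bulk RNA data of the study were not used here. Sums and tables were made with pandas 2.3.3 and numpy 2.4.6 under Python 3.11.15, intervals with scipy 1.17.1, doublet calls with scikit-learn 1.9.0, and plots with matplotlib 3.10.9.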

Additional observations from a re-analysis of the deposited data

Results flagged for a closer look

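For 6 Rab genes, the order of epithelial cell types turned from one region to another, with counting intervals on both sides of 1. They were 11.5% of 52 Rab genes, against 15.3% of 11748 genes that met the same rule, so the count was not above the background. The differences between regions were not tested, since each region is 1 library, and the genes were found by looking through all Rab genes. Basal over principal cells, *Rab11a* had ratios of 1.36 (1.08 to 1.71), 2.52 (1.99 to 3.22), 2.70 (2.14 to 3.41) and 0.728 (0.631 to 0.838) from caput to vas deferens. *Rab13* had a ratio of 4.05 (2.28 to 7.58) in the caput and 0.297 (0.193 to 0.441) in the vas deferens. For *Rab15* the ratios along the duct were 2.14 (1.004 to 4.77), 3.09 (1.44 to 7.62), 0.525 (0.274 to 0.946) and 0.206 (0.124 to 0.324). These genes were thus lower in basal than in principal cells of the vas deferens and higher in basal cells of the caput.

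*Rab27b* was higher in basal cells in the caput, with a ratio of 2.37 (1.28 to 4.54), and lower in the corpus, at 0.384 (0.154 to 0.913), and the vas deferens, at 0.243 (0.103 to 0.496). *Rab34*, a Rab of macropinocytosis and cilia, had a basal-to-principal ratio of 1.94 (1.34 to 2.84) in the caput, 0.642 (0.426 to 0.947) in the cauda and 0.696 (0.503 to 0.946) in the vas deferens, and was chosen after its values were seen. Clear over principal cells, *Rab25* had ratios of 1.72 (1.15 to 2.51), 1.44 (1.04 to 1.99) and 1.51 (1.12 to 2.03) in the caput, corpus and cauda and 0.605 (0.344 to 0.988) in the vas deferens, where 38 clear cells carried principal cell markers at 9866 UPM. The part of those markers in the ratio was not tested.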

How the results depend on the processing

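No paired analysis was possible because each region is 1 library, a pool of the same 4 mice, so no group has replicates to pair. Cell types of 1 library were set side by side by their values. The counts to compare are 6 Rab genes restricted among epithelial types, 11 at 2-fold, 2 over 7 cell types, 9 between regions and 10 regulators. At 3-fold (1.5-fold for the 2-fold rules), 21 Rab genes passed the milder epithelial rule and 17 regulators were restricted. At 6-fold (3-fold), the 5 counts were 2, 7, 0, 4 and 6. With at least 50 UMIs, 1 Rab gene was restricted over 7 types and 6 regulators were. With cells of at least 1000 UMIs, and with equal weight of libraries, 1 Rab gene was restricted over 7 types. Leaving out 1 library at a time, the counts ranged from 1 to 5 (1 without the cauda), 8 to 12, 1 to 2, 3 to 12 (3 without the vas deferens) and 7 to 10. The causes were not tested, and fewer cells enter where a library is left out. Every count was within 1.5 times with at least 10 UMIs, without low-UMI subclusters, without called doublets and by the mean over cells. The same held for counts under median scaling and for leaving out the basal macrophage-like cells, which were chosen after seeing the data. Equal weight of libraries was not run between regions, where each group is 1 library.

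Of 308 ratios of named members under alternatives, 259 stayed in the counting interval, 37 left it in the same direction and 12 reversed. With median scaling, the clear-to-basal ratio was 0.795 for *Rab1*, 0.838 for *Rab7* and 0.959 for *Rab14*, and the clear-to-principal ratio was 0.875 for *Rab11a* and 0.922 for *Rab8a*. Leaving out 1 library, the latter for *Rab11a* ranged from 0.993 (without the cauda) to 2.73. *Rab13* principal over clear was 0.948 with equal weight. Without the vas deferens, *Rab13* principal over clear was 0.818 and *Rab27b* principal over basal 0.704. Without the caput they were 2.23 and 3.93, the highest on leaving out 1 library. *Rab29* principal over clear was 0.985 without the vas deferens and 4.22, also the highest, without the caput, with clear cells raised to 3 UMIs. Clear cells had 1 *Rab29* UMI over all libraries, so the 0.985 came from this floor and is not an observed reversal. By the mean over cells, *Rab3b* clear over principal was 0.739 and *Rab5a* basal over clear was 0.992. The causes were not tested.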
